A study of Mus musculus with 55 samples.

Results

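The subject is the interleukin-1 family as transcribed in sorted mouse liver cells: 10 genes, the cytokines Il1a, Il1b, Il18 and Il33, the receptor antagonist Il1rn, and the receptor chains Il1r1, Il1r2, Il1rap, Il18r1 and Il1rl1. They were taken by gene symbol from a table of 24478 symbols, and all 10 were in it. A symbol with several transcript rows was represented by the one whose average over the 55 libraries was largest. RNA was sequenced from 10 populations of C57B/L6 mouse liver cells sorted by FACS (fluorescence-activated cell sorting) into TRIzol, in 27 libraries of normal liver and 28 of liver after partial hepatectomy (PH, surgical removal of part of the liver). Normal and PH liver gave, in that order, 4 and 2 libraries of clonal biliary epithelial cells (cBEC), 4 and 2 of biliary epithelial cells (BEC), 4 and 4 of hepatocytes (HC), 2 and 2 of non-progenitor ducts (NPD), 2 and 3 of endothelial cells (EC), and 3 and 5 of liver sinusoidal endothelial cells (LSEC). Blood cells gave 2 and 2, Thy1 cells 2 and 2, Kupffer cells, the resident macrophages of the liver (KC), 2 and 3, and hepatic stellate cells (HSC) 2 and 3. The labels give no time after surgery, age, animal or batch, so it is not stated whether libraries of a group came from separate mice, and p-values measure only the spread between these libraries.

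Interleukin-1 alpha and beta bind the receptor chain encoded by Il1r1, which then recruits the accessory chain encoded by Il1rap and signals through Myd88 and the IRAK kinases to NF-kappaB and MAP kinases. The product of Il1rn occupies the receptor without signalling, and the product of Il1r2 is a decoy that binds ligand without signalling. Interleukin-18 acts through the chains encoded by Il18r1 and Il18rap and is held in check by the binding protein Il18bp, while interleukin-33, a nuclear protein released from damaged cells, acts through the product of Il1rl1 (ST2) together with the Il1rap chain. Pro-interleukin-1 beta and pro-interleukin-18 are cleaved by caspase-1 in inflammasomes. In liver, macrophages are a known source of interleukin-1 and interleukin-18, and endothelium and mesenchyme are known sources of interleukin-33.

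Of these genes, 4 receptors lie in a row on chromosome 1, on the plus strand: Il1r2 at chr1:40141612-40182070, Il1r1 at chr1:40281924-40373022, Il1rl1 at chr1:40496473-40522259 and Il18r1 at chr1:40522465-40548425. Il1a at chr2:129125345-129135708 and Il1b at chr2:129190313-129196875 lie near each other on the minus strand of chromosome 2, which also carries Il1rn at chr2:24200810-24207011 (plus strand). Il1rap lies at chr16:26581790-26702440, Il18 at chr9:50373472-50389942 and Il33 at chr19:29999603-30035205, all on the plus strand. These are the table's transcript spans, and mm9 is the build that the submitters' processing notes name.

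Sequence upstream of the transcription start is shown for Il1a and Il1b, both abundant in KC and lower there after PH, and for Il1r1 and Il33, which were higher in LSEC after PH. Each run is the 250 bases before an annotated start on the gene's own strand, from RefSeq for GRCm38.p6, a different build from the table's, and capitals mark matches on either strand to the kappaB motif, the AP-1 motif TGANTCA, the C/EBP motif TTGCNNAA or the TATA motif TATAAA. The spans are chr2:129309973-129310222 (minus strand) for Il1a, chr2:129371140-129371389 (minus strand) for Il1b, chr1:40224830-40225079 and chr1:40266336-40266585 (plus strand) for the first and second Il1r1 starts, and chr19:29945540-29945789 (plus strand) for the second Il33 start.
Il1a: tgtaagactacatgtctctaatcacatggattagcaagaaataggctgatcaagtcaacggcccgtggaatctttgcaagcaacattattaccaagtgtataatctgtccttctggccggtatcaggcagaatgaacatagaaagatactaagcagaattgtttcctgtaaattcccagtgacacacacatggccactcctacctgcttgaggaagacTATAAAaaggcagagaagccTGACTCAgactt
Il1b: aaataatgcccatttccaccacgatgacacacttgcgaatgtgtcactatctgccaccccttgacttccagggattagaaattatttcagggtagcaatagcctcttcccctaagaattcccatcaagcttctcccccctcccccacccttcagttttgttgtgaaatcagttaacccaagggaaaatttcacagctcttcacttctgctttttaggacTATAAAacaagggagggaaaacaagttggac
Il1r1 first start: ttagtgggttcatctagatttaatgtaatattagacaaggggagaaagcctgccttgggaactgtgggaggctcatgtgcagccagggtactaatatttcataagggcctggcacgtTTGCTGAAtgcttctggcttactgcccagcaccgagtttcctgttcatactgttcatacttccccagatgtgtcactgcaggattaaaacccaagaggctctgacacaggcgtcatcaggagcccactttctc
Il1r1 second start: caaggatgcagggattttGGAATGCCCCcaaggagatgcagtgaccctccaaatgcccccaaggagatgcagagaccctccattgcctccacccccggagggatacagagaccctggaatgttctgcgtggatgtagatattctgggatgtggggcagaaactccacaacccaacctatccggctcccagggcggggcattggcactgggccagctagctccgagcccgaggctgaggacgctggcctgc
Il33 second start: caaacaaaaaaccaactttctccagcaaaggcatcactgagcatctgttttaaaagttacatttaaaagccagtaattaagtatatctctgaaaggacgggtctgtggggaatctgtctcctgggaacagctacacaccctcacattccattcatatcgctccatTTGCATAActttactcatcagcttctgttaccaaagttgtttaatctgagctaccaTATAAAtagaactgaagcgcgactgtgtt
A TATAAA match began at position -32 from the start in Il1a, at -31 in Il1b and at -29 at the second Il33 start. Il1a also held an AP-1 match at -12, the second Il33 start a C/EBP match at -85, the first Il1r1 start a C/EBP match at -133 and the second a kappaB match at -232. The Il33 levels given below are of the row that begins at the first Il33 start. Its window, not shown, held TATAAA at -203 and no C/EBP match. Over the 17 annotated starts of the 10 genes, 5 windows held TATAAA, 3 TTGCNNAA, 2 TGANTCA and 1 the kappaB motif. Over 32851 mouse promoter windows of the same length the shares were 12.4%, 9.56%, 6.75% and 3.9%. A match describes the letters only, and its absence says only that the letters are not in the window.

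Levels are FPKM (fragments scaled by transcript length and library total), and the read depth behind them is unknown. Changes are differences of mean log2(FPKM + 1), PH minus normal, tested with limma over all genes measured in a population, and a gene is called where the adjusted p was under 0.05. Marker genes matched most labels: the 6 hepatocyte markers summed to 63717 to 98729 FPKM in HC, and the 7 stellate markers to 2841 to 5251 FPKM in HSC. NPD libraries held a 5-gene mesothelial list at 3655 to 5143 FPKM beside a 6-gene duct list at 2584 to 4692 FPKM, and Thy1 libraries held the mesothelial list at 951 to 2336 FPKM. In blood, a 6-gene Kupffer list rose from 465 and 752 FPKM to 9266 and 16278 FPKM after PH. In bulk RNA, fewer cells of a type and less RNA per cell cannot be told apart. The library titled PH cBEC 1 carries a treatment tag of normal, and PH KC library 3 carries no cell type tag; both were grouped by title.

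**Figure D1:**
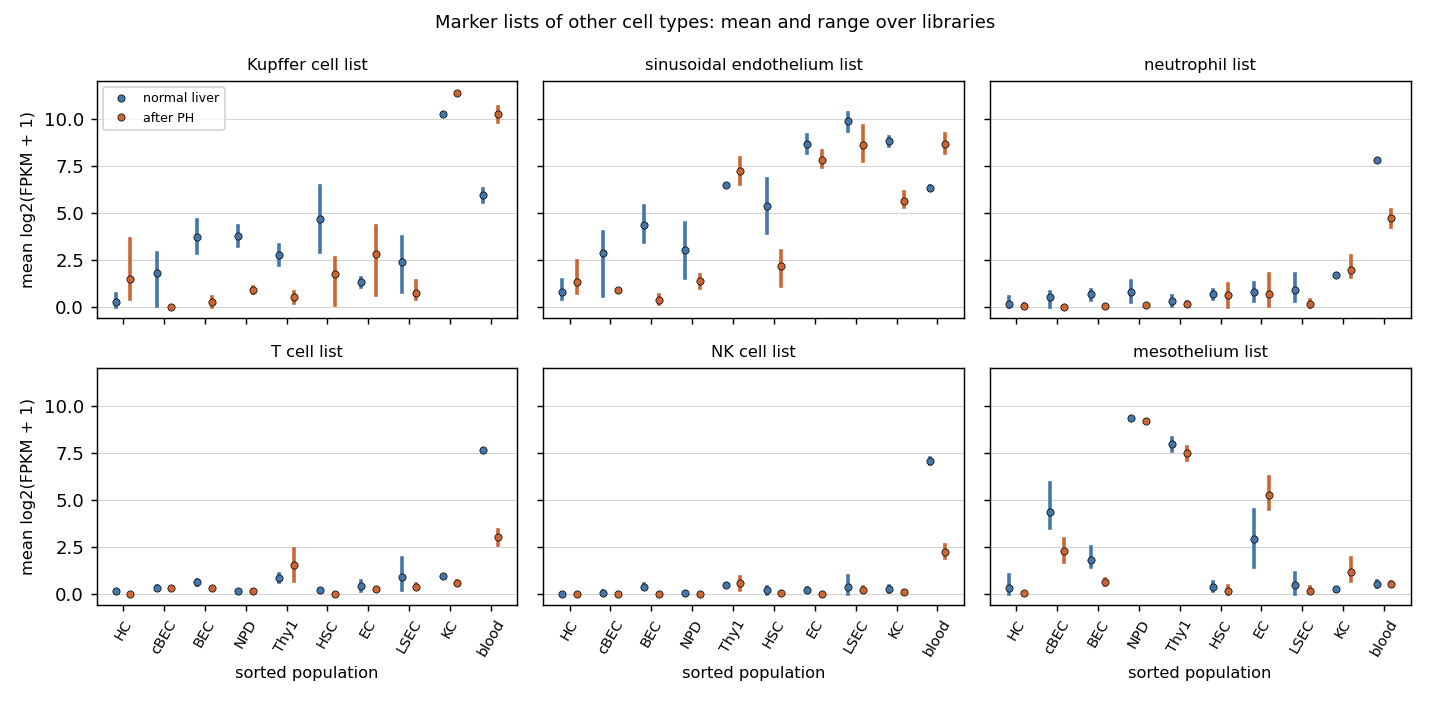
Marker lists of 6 cell types in the 10 sorted populations. The vertical axis is the mean log2(FPKM + 1) over a list's genes, points are group means, bars the range over libraries, blue is normal liver and orange is PH. The Kupffer list is high in KC and in blood after PH, and the T cell and NK cell lists are high in normal blood.

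In normal liver the family divided by cell type. Il1b and Il1rn were highest in KC, Il1a in KC, EC and LSEC, Il18 and Il18r1 in NPD, Il33 in Thy1 cells, NPD and EC, Il1r1 in HSC, Il1rap in HC, and Il1r2 and Il1rl1 in blood. When each population was set against the mean of the other 9 in a single fit of all 20 groups, 73 of 100 gene-population pairs differed in normal liver, beside 48.1% over all genes. After PH it was 74 of 100 pairs, beside 43.9% over all genes, so sorted populations differed in much of their RNA.

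After PH, members were called in 6 of the 10 populations. In blood, 8 of 10 tested members were called, 5 higher and 3 lower, where 64.0% of all genes tested were called, 24.3% higher and 39.7% lower. KC had 4 of 8 called, 1 higher and 3 lower, where 36.8% of genes were called, 16.7% higher and 20.1% lower. Without PH KC library 3, limma called 6890 genes in KC in place of 4350, Il1rn and Il1rap among them, and without any other KC library 1471 to 2782. LSEC had 3 of 5 called, 2 higher and 1 lower, where 8.46% of genes were called, 4.15% higher and 4.31% lower. BEC had 3 of 6, all lower, where 1.81% of genes were called and 1.57% were lower. Il1a and Il1b in BEC, and Il1rl1 in blood, reached 1 FPKM in normal libraries only. The filter on low values thus admitted them through the higher group, and the direction of these calls is no separate result. NPD had 2 of 8, 1 higher and 1 lower, where 15.2% of genes were called, 9.65% higher and 5.51% lower, and HC had 1 of 3, higher, where 6.19% of genes were called and 1.78% were higher. No member was called in cBEC (7 tested, 0.0681% of genes called), EC (7 tested, 0.0249%), Thy1 cells (8 tested, 0.00747%) or HSC (6 tested, 0.00853%), where limma gave an unadjusted p under 0.05 for 2, 3, 3 and 1 members. With so many genes called in blood and KC, a call there sets a gene little apart from the rest. Median changes over the tested members were 0.63 in LSEC against -0.03 over all genes, -0.66 in BEC against -0.12, -0.39 in KC against -0.04, and 0.40 in blood against -0.31. They were -0.39 in HC against -0.07 and -0.10 in NPD against 0.09. Where no member was called they were as large: -0.72 in cBEC against -0.11, -0.78 in HSC against 0.03, 0.62 in Thy1 cells against -0.06 and 0.48 in EC against 0.02. The LSEC median is the value of Il1r2, at 0.215 FPKM in normal and 0.944 FPKM in PH LSEC and not called.

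**Figure D2:**
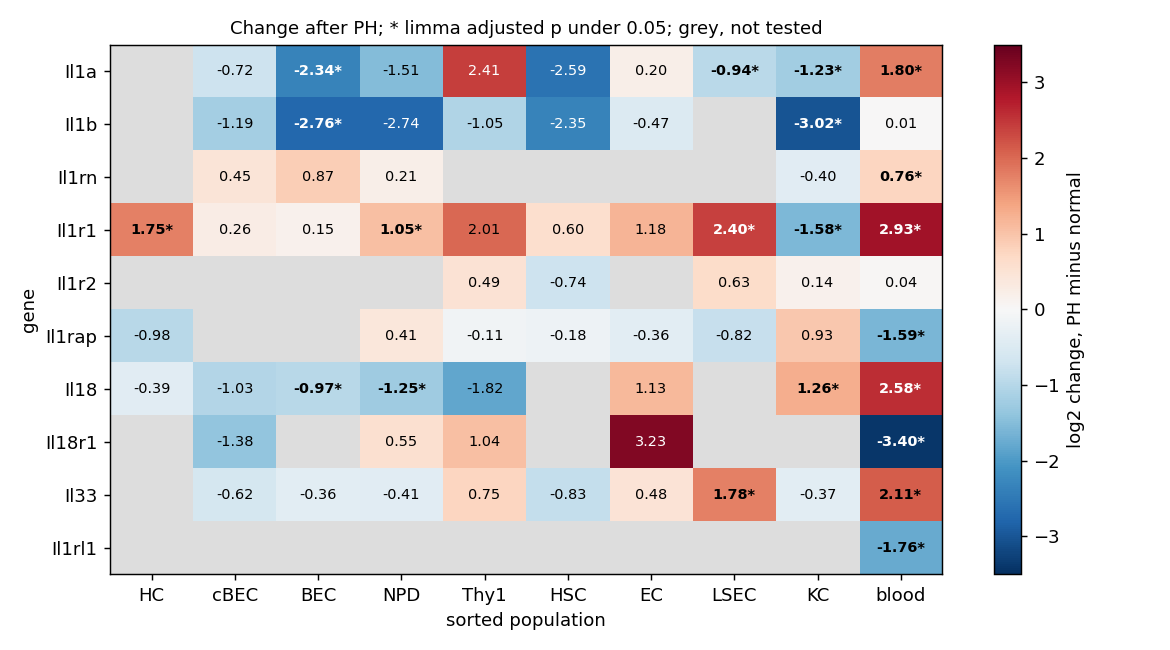
Change of each gene after PH in each population. Colours and printed values are the log2(FPKM + 1) difference, PH minus normal, stars mark a limma adjusted p under 0.05, and grey cells had too low a level to be tested. Il1r1 is higher in most columns and lower in KC, and Il1b has no starred rise.

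Il1b, the cytokine made as an inactive precursor by activated macrophages, fell in KC after PH. Its 2 normal KC libraries held 698 and 503 FPKM, and the 3 PH libraries 58, 67.1 and 97.1 FPKM. The groups were far apart: the highest PH library lay well below the lowest normal one. The change was -3.02 on the log2 scale (SE 0.26, adjusted p = 0.00169) and was called with any 1 of the 5 libraries left out (adjusted p at most 0.0333). Blood was the other abundant population, with 166 and 151 FPKM in normal liver and 215 and 118 FPKM after PH, overlapping groups with a change of 0.01 (SE 0.32, adjusted p = 0.986). Blood thus had the highest Il1b level after PH, both libraries lying above every KC library. Its marker lists had changed: 6 of 6 Kupffer genes were called higher there and 5 of 6 neutrophil genes lower. All 6 T cell genes were called lower as well. The part of these lists in the Il1b level of blood was not tested.

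The remaining populations held little Il1b, at most 13.8 FPKM in any library. In BEC the normal libraries had 4.32, 8.39, 9.24 and 3.8 FPKM, and the PH libraries 0.086 FPKM and a listed 0. That fall was -2.76 (SE 0.36, adjusted p = 0.0126), in libraries where the 6 Kupffer markers went from a sum of 57 to 247 FPKM to a sum of 0.183 to 3.28 FPKM, 5 of 6 called lower, with Timd4 and Adgre1 listed at 0 in both PH libraries. The part of those cells in the result was not tested. NPD showed the same pattern of values, 13.8 and 2.6 FPKM in normal liver against a listed 0 and 0.192 FPKM after PH, with an adjusted p of 0.0573. LSEC had 11, 12.8 and 0 FPKM in normal liver and at most 0.24 FPKM after PH, and was not tested in its own fit because too few libraries reached 1 FPKM. The single fit of all groups, which shares the spread, called it lower (change -2.36, adjusted p = 0.0166).

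Il1a, the membrane-bound and nuclear form of interleukin-1, was abundant in both endothelial sorts as well as in KC. Normal KC held 256 and 216 FPKM, normal EC 254 and 138 FPKM, and normal LSEC 220, 203 and 124 FPKM. These top 3 groups overlapped, and every one of their libraries lay above all other populations, of which blood (29.4 and 35.4 FPKM) came next. After PH the level in KC was 83.6, 92.8 and 129 FPKM, a change of -1.23 (SE 0.21, adjusted p = 0.0096) with no overlap. LSEC held 98.6, 120, 109, 65.4 and 76.1 FPKM after PH, all under the lowest normal library, a change of -0.94 (SE 0.25) that only just passed (adjusted p = 0.0487). EC held 228, 172 and 255 FPKM after PH, overlapping normal EC (change 0.20, SE 0.31, adjusted p = 0.864), and so stood first, above every library of the other populations.

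Both Il1a calls were fragile. That in KC was lost without either normal library (highest adjusted p 0.0938), and in the fit of all groups (adjusted p = 0.284), and that in LSEC in 5 of 8 leave-one-out fits (highest adjusted p 0.185). The loss in LSEC followed removal of normal library 1 or 2 or of PH library 1, 4 or 5. In KC, the 6 sinusoidal endothelial markers, a list for a cell type in which Il1a is also abundant, went from a sum of 3240 to 4470 FPKM to a sum of 303 to 526 FPKM, all 6 called lower. Their part in the fall of Il1a in KC was not tested.

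Blood moved the other way, from 29.4 and 35.4 FPKM of Il1a to 139 and 95 FPKM (change 1.8, SE 0.24, adjusted p = 0.0035). The Kupffer and sinusoidal lists, for cells rich in Il1a, rose in the same blood libraries, the latter from 705 and 804 FPKM to 2454 and 5465 FPKM with 6 of 6 called, and their part was not tested. Thy1 cells held 2.08 and 23.3 FPKM and then 29.2 and 68.5 FPKM, a difference of 2.41 (SE 1.02) that was not called (adjusted p = 0.3). BEC had 3.94, 7.24, 7.95 and 3.36 FPKM in normal liver and 0.213 and 0.286 FPKM after PH, a fall of 2.34 on the log2 scale (SE 0.34, adjusted p = 0.017) beside the same loss of Kupffer markers as for Il1b. Sinusoidal markers went from a sum of 78.4 to 314 FPKM to one of 0.692 to 4.25 FPKM in these BEC libraries, 5 of 6 called lower, and endothelial markers from 37.4 to 143 FPKM to 2.01 and 2.35 FPKM, 4 of 6 called lower. Their part was not tested. HSC libraries disagreed within a group, at 2.23 and 40 FPKM in normal liver and 4.08, 0 and 0.381 FPKM after PH. HC stayed at or below 2.3 FPKM.

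**Figure D3:**
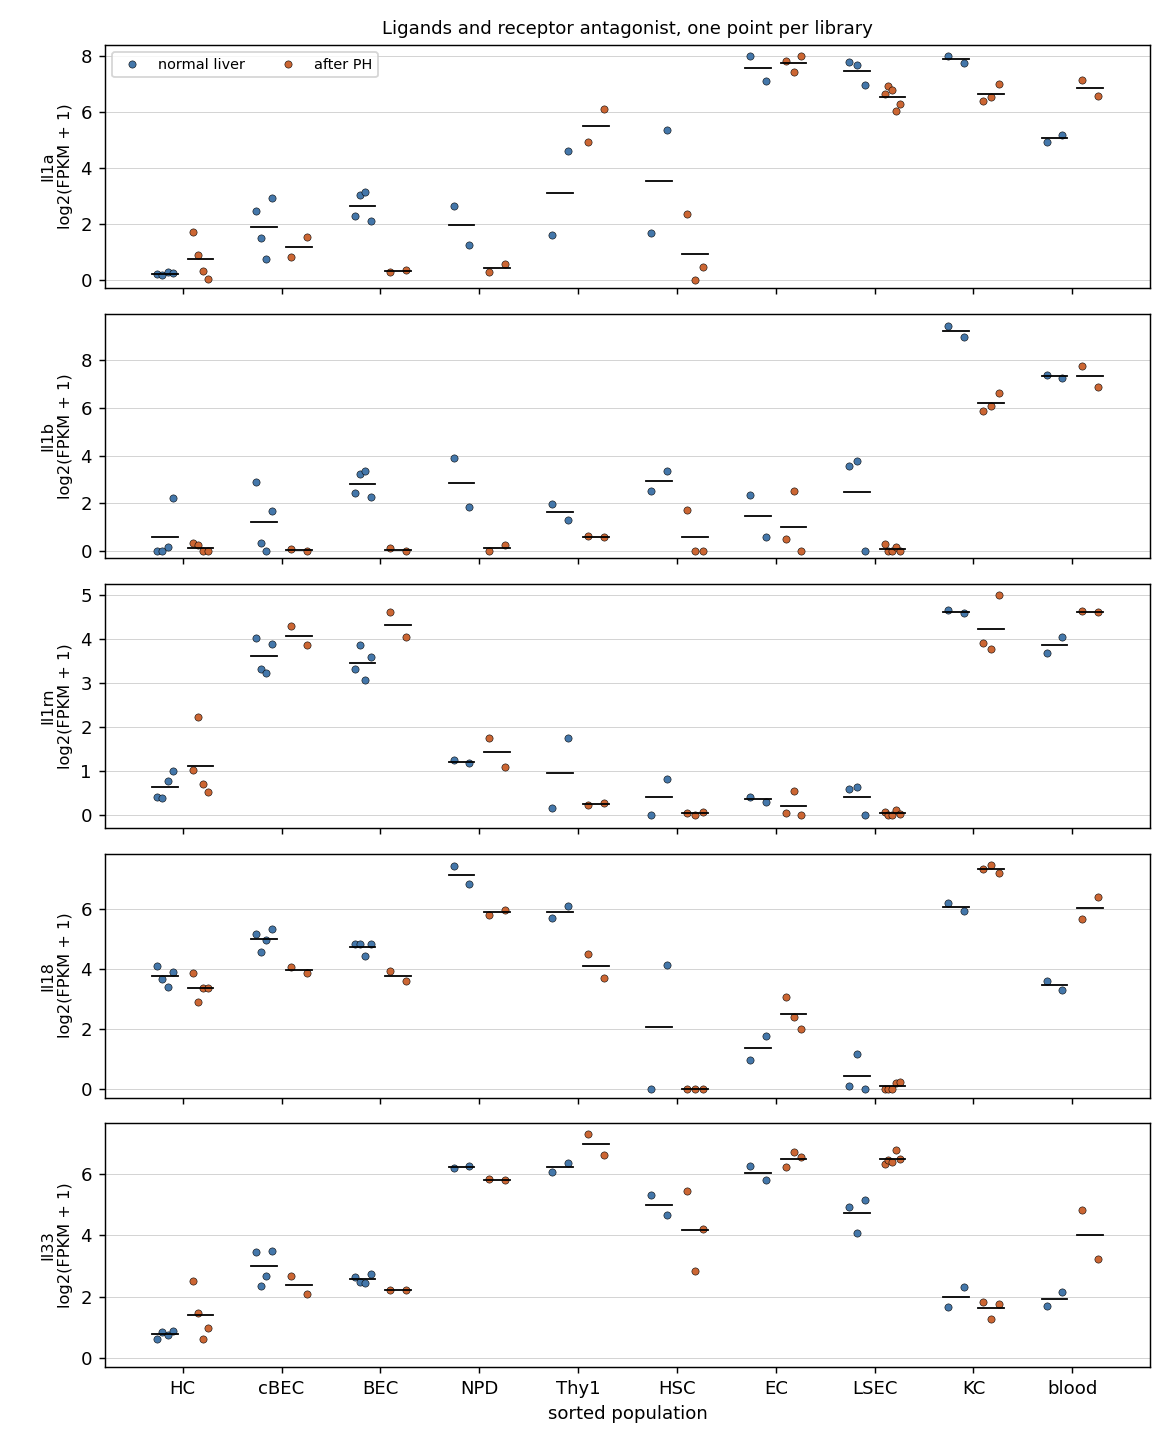
Levels of the 4 cytokines and the receptor antagonist, 1 point per library and a bar at the group mean, on a log2(FPKM + 1) axis that differs between panels. In KC, Il1b and Il1a are lower and Il18 is higher after PH, and Il33 is higher in LSEC.

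Il1rn, which encodes the receptor antagonist, was most abundant in KC, blood and the biliary sorts. KC held 24.4 and 23.2 FPKM in normal liver, blood 11.9 and 15.5 FPKM, cBEC 15.3, 9.01, 8.46 and 13.9 FPKM, and BEC 8.94, 13.7, 7.35 and 11.1 FPKM. Blood, cBEC and BEC overlapped, and KC lay above them all. No library of NPD, HC, EC, LSEC, Thy1 cells or HSC was above 3.67 FPKM. In the single fit, cBEC and BEC were above the mean of the other populations in normal liver by 1.85 (SE 0.23, adjusted p = 7.36e-09) and 1.67 (SE 0.23, adjusted p = 6.91e-08).

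After PH, Il1rn rose in blood to 23.9 and 23.4 FPKM (change 0.76, SE 0.19, adjusted p = 0.0196), a call that was lost without any 1 of the 4 libraries (adjusted p from 0.0532 to 0.13). The Kupffer list, for cells rich in Il1rn, rose in the same blood libraries, with 6 of 6 genes called higher, and its part was not tested. BEC after PH held 23.7 and 15.5 FPKM, above every normal BEC library, but the difference of 0.87 (SE 0.27) did not pass (adjusted p = 0.158). KC after PH held 14, 12.7 and 31.2 FPKM, so that 1 PH library lay above and 2 below the normal pair (change -0.40, SE 0.39, adjusted p = 0.456). Without that high library the difference in KC was called. The table's 3 transcript rows of Il1rn, which differ in where they start, gave nearly the same values in each library, with a median difference of at most 0.0224 on the log2 scale over 55 libraries, so the table does not separate transcripts from different starts.

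Il18, whose precursor is made constitutively by macrophages and epithelia, was highest in normal NPD (173 and 113 FPKM), followed by KC (72.7 and 60.5 FPKM) and Thy1 cells (51.3 and 67.5 FPKM), which overlapped. Biliary cells came next, cBEC with 34.7, 22.7, 30.2 and 38.8 FPKM and BEC with 27.5, 27.6, 20.7 and 27.1 FPKM. HC held 16.1, 11.5, 9.55 and 13.8 FPKM, overlapping blood, and no LSEC library was above 1.21 FPKM.

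After PH, Il18 rose in KC to 162, 176 and 146 FPKM, each more than any normal KC library (change 1.26, SE 0.14, adjusted p = 0.00283), in the libraries where Il1b and Il1a fell. The Kupffer list was higher there as well, from a sum of 11097 to 12409 FPKM to one of 26933 to 28268 FPKM, 3 of 6 called higher, and its part was not tested. The call held with any 1 library left out (highest adjusted p 0.04), and was lost in the single fit of all groups, where the spread is shared (adjusted p = 0.0949). Blood rose from 11.1 and 8.76 FPKM to 49.8 and 82.5 FPKM (change 2.58, SE 0.29, adjusted p = 0.00241), beside the 6 Kupffer markers, all called higher there. Whether Kupffer cells in the blood sort account for it was not tested.

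Il18 went down in BEC and in NPD, a sort that also held the mesothelial list. NPD held 55.1 and 61.3 FPKM of Il18 after PH (change -1.25, SE 0.25, adjusted p = 0.0343), and BEC 14.2 and 11.2 FPKM (change -0.97, SE 0.19, adjusted p = 0.0459). Kupffer markers, a list for another Il18-rich cell, fell in both sorts, in BEC as given for Il1b and in NPD from a sum of 82.4 to 180 FPKM to one of 4.74 to 8.81 FPKM, 5 of 6 called lower, and their part was not tested. No duct marker was called lower: in BEC 1 of 6 was called higher, and in NPD 0 of 6 were called in either direction. Of the mesothelial list 0 of 5 were called in NPD, and 2 of 4 tested were called lower in BEC, and its part was not tested. In cBEC the PH libraries (15.8 and 13.5 FPKM) were also under every normal one, with a change of -1.03 (SE 0.23) at an adjusted p of 0.298. Both called falls depended on single PH libraries, the BEC call reaching an adjusted p of 0.398 and the NPD call 0.341 when one was left out, and the BEC call was lost as well without normal library 1 or 4. Thy1 cells held 21.6 and 11.8 FPKM after PH, below both normal libraries (change -1.82, SE 0.36), without passing (adjusted p = 0.148). In HC the groups overlapped, at 13.6, 6.45, 9.35 and 9.15 FPKM after PH (change -0.39, SE 0.25, adjusted p = 0.415).

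Il33, the nuclear alarmin, was abundant outside the blood lineage. In normal liver Thy1 cells held 66.7 and 82.1 FPKM, NPD 72 and 75.9 FPKM and EC 75.2 and 55 FPKM, with overlap between neighbours in that order. HSC (38.9 and 24.5 FPKM) and LSEC (29.7, 16 and 34.5 FPKM) followed, and overlapped each other. Biliary cells held 4.15 to 10.2 FPKM, KC 2.2 and 3.97 FPKM, blood 2.26 and 3.41 FPKM, and HC 0.54 to 0.84 FPKM.

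Il33 rose in LSEC after PH, into the range of PH EC, with 80.5, 87.2, 83.9, 110 and 89.9 FPKM. Every PH library was above the highest normal one, and the change was 1.78 (SE 0.23, adjusted p = 0.00284, at most 0.0173 with any library left out). General endothelial markers were not called there (0 of 6), while 2 of 6 sinusoidal markers were called lower. The portal fibroblast and Thy1 cell list, for a sort rich in Il33, summed to 9.13 to 201 FPKM in normal LSEC and 121 to 560 FPKM in PH LSEC, with 0 of 4 tested called, and its part was not tested. EC held 74.7, 104 and 93.3 FPKM after PH, overlapping normal EC (change 0.48, SE 0.23, adjusted p = 0.52). Blood went from 2.26 and 3.41 FPKM to 27.7 and 8.3 FPKM (change 2.11, SE 0.57, adjusted p = 0.0281), beside 6 of 6 endothelial markers called higher, whose part was not tested. NPD held 56.4 and 54.7 FPKM after PH, under both normal libraries, a difference of -0.41 (SE 0.15, adjusted p = 0.133) that was not called. PH libraries of HSC were scattered, at 42.6, 6.14 and 17.5 FPKM.

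Il1r1, the signalling receptor of interleukin-1, was present in every population. Normal HSC were highest, at 86.4 and 81.6 FPKM, above every library of the others. LSEC (40.2, 21.4 and 52.3 FPKM), EC (31.9 and 35.8 FPKM), BEC (29.6 to 40.1 FPKM), Thy1 cells (14 and 49.5 FPKM) and cBEC (24 to 33.6 FPKM) formed an overlapping middle. NPD (10.9 and 15.6 FPKM), KC (9.86 and 10.5 FPKM), HC (4.52, 7.9, 7.54 and 4.06 FPKM) and blood (4.18 and 4.42 FPKM) were lowest.

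After PH, Il1r1 rose in LSEC, HC, NPD and blood and fell in KC. LSEC reached 223, 243, 148, 213 and 155 FPKM, a change of 2.40 (SE 0.29, adjusted p = 0.00201), and had the highest mean, its lowest library level with the highest of HSC. HC reached 17.9, 28.6, 15.5 and 28.7 FPKM, with no overlap with normal HC (change 1.75, SE 0.28, adjusted p = 0.00705). Both calls held with any 1 library left out, at an adjusted p of at most 0.0154 in LSEC and 0.0291 in HC. The sinusoidal markers, low in HC, summed to 2.57 to 11.6 FPKM in normal and 4.91 to 45.6 FPKM in PH hepatocytes, and neither of the 2 that could be tested was called.

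NPD rose to 30.3 and 26 FPKM of Il1r1 (change 1.05, SE 0.23, adjusted p = 0.0415), lost without either PH library, when limma called 0 genes at all in NPD and gave 1822 and 1806 genes an unadjusted p under 0.05. Blood rose to 65.3 and 23.7 FPKM (change 2.93, SE 0.49, adjusted p = 0.00659), beside the endothelial lists as for Il1a and Il33. In EC (102, 59.7 and 78 FPKM), HSC (148, 111 and 126 FPKM) and Thy1 cells (101 and 119 FPKM) every PH library was above the normal ones. The differences were 1.18 (SE 0.25), 0.60 (SE 0.27) and 2.01 (SE 0.60), none called in the population's own fit (adjusted p 0.215, 0.606 and 0.216). In the single fit of all groups that in Thy1 cells was called (adjusted p = 0.000783), and those in EC (0.134) and HSC (0.354) were not. Biliary cells showed no such separation: BEC held 32.6 and 40.6 FPKM after PH and cBEC 29 and 41.1 FPKM, both overlapping normal.

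KC went down, to 2.84, 1.73 and 4.05 FPKM of Il1r1 (change -1.58, SE 0.29, adjusted p = 0.0115), and was then the lowest population. The call was lost without either normal KC library (highest adjusted p 0.0923). The sinusoidal endothelial list fell in the same libraries, as given for Il1a, and its part was not tested.

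**Figure D4:**
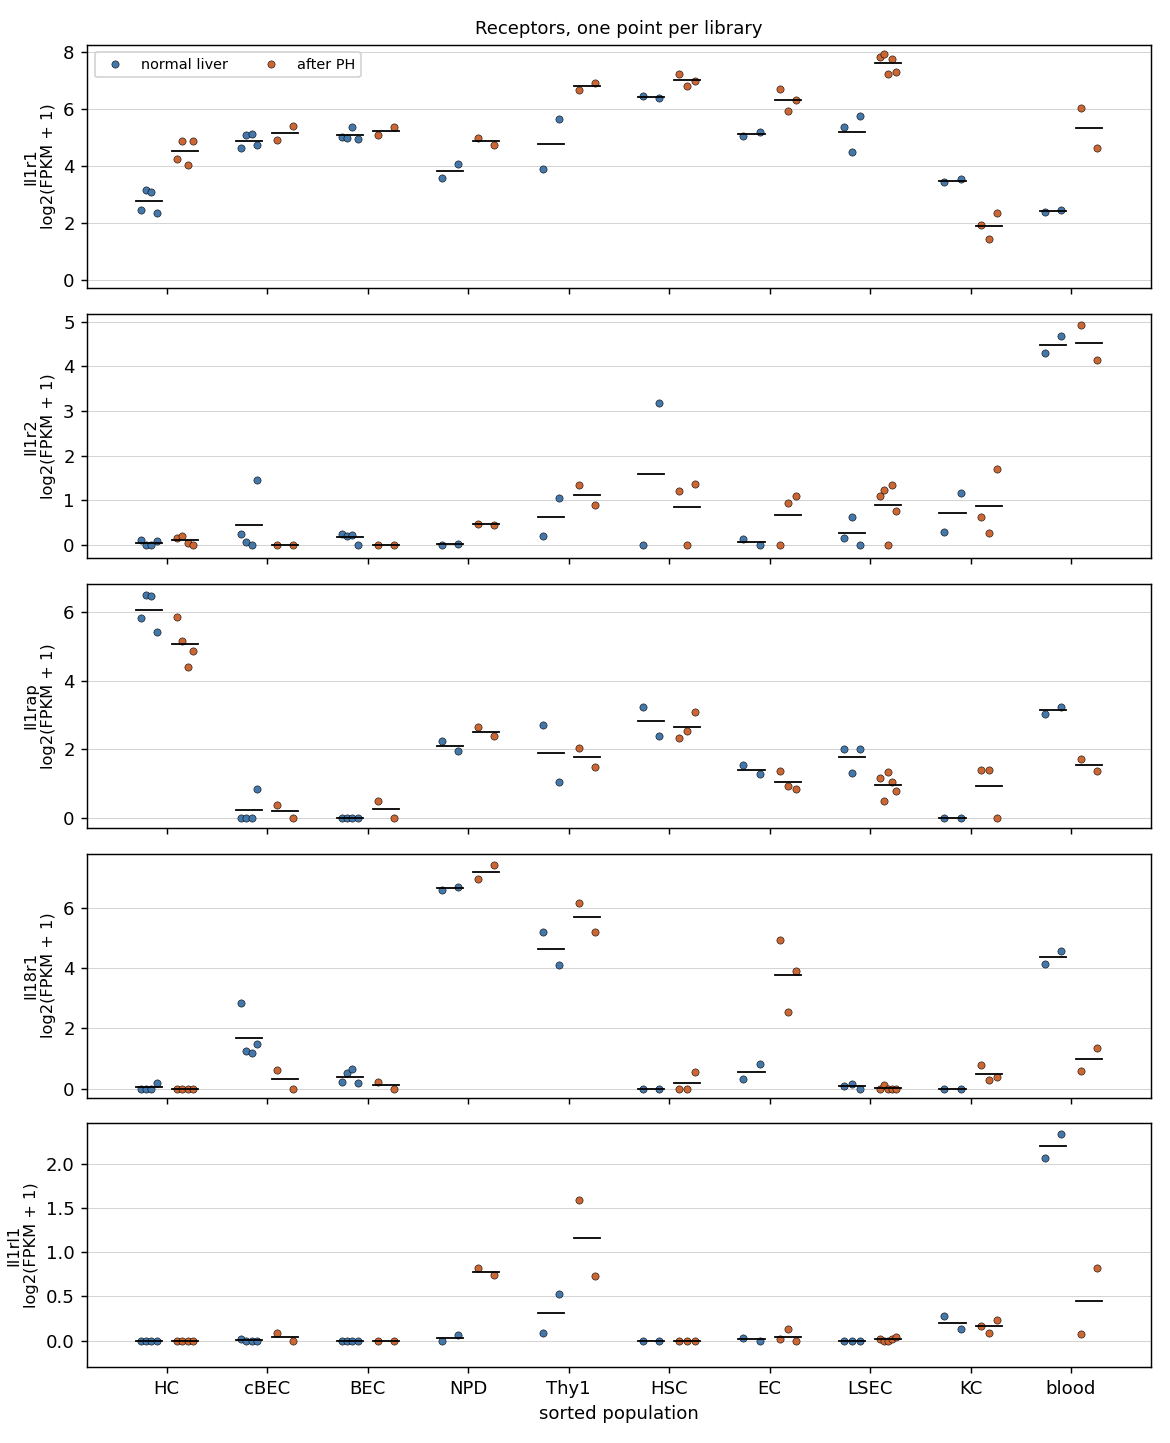
Levels of the 5 receptor genes, 1 point per library and a bar at the group mean, on a log2(FPKM + 1) axis that differs between panels. Il1r1 is present throughout and highest in LSEC after PH, Il1r2 stands out in blood, Il1rap in HC and Il18r1 in NPD.

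Il1r2, the decoy receptor typical of neutrophils, was a blood transcript. Normal blood held 18.7 and 24.6 FPKM and PH blood 29.3 and 16.7 FPKM, overlapping groups (change 0.04, SE 0.31, adjusted p = 0.912). Elsewhere the highest value was 8.13 FPKM in 1 of 2 normal HSC libraries, the other being listed at 0, and all remaining libraries were at or below 2.26 FPKM. The 6 neutrophil markers in blood summed to 3655 and 3992 FPKM in normal liver and 954 and 2329 FPKM after PH, with 5 of 6 called lower. Thus that list was called lower where Il1r2, with overlapping groups, was not called.

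Il1rap, the accessory chain shared by the receptors for interleukin-1 and interleukin-33, was a hepatocyte transcript. The used row, the shortest of 4 (NM_134103), held 55.7, 89.2, 87.5 and 41.8 FPKM in normal HC and 57.3, 34.8, 20 and 28.1 FPKM after PH. The groups overlapped in 1 PH library, and the difference of -0.98 (SE 0.35) was not called (adjusted p = 0.142). No library outside HC was above 8.47 FPKM. Blood fell from 7.19 and 8.4 FPKM to 2.29 and 1.57 FPKM (change -1.59, SE 0.22, adjusted p = 0.00395), in libraries whose neutrophil, T cell and NK cell lists fell, which was not tested as a part of it.

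The Il1rap gene makes a membrane form and a shorter secreted form, and the table's 4 rows have 3 different 3' ends. On the row ending at 26717834 (NM_008364) normal HC held 32.0 ± 6.66 FPKM and PH HC 17.0 ± 6.60 FPKM (SD, n = 4), less than on the row ending at 26702440, where it held 68.5 ± 23.6 and 35.0 ± 16.0 FPKM. In the mean levels of the other populations the order of these 2 rows was turned: blood held 14.2 ± 0.632 FPKM on the longer row against 7.79 ± 0.853 FPKM on the shorter (SD, n = 2), and NPD 8.80 ± 0.751 against 3.30 ± 0.581 FPKM. Normal KC and BEC were listed at 0 on the shorter row in every library but held 2.60 and 2.68 FPKM and 0.412 to 6.57 FPKM on the longer. The 2 longest rows, which share an end at 26725233, did not show that turn: normal blood held 4.38 and 4.02 FPKM on them and normal NPD 2.59 and 2.37 FPKM, less than on the shortest row. Reads of the shared exons can be divided between rows in more than one way, so the split is that of the authors' quantification. Zeros of the shortest row are given as listed. Exact zeros outside HC were more frequent for genes most abundant in HC: they made up 1.40% of values for genes under 10 FPKM in HC, 1.41% at 30 to 100 FPKM, where Il1rap lies in normal HC, 4.37% at 100 to 300 FPKM and 11.8% from 300 FPKM up, and Alb was listed at 0 in every KC library.

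**Figure D5:**
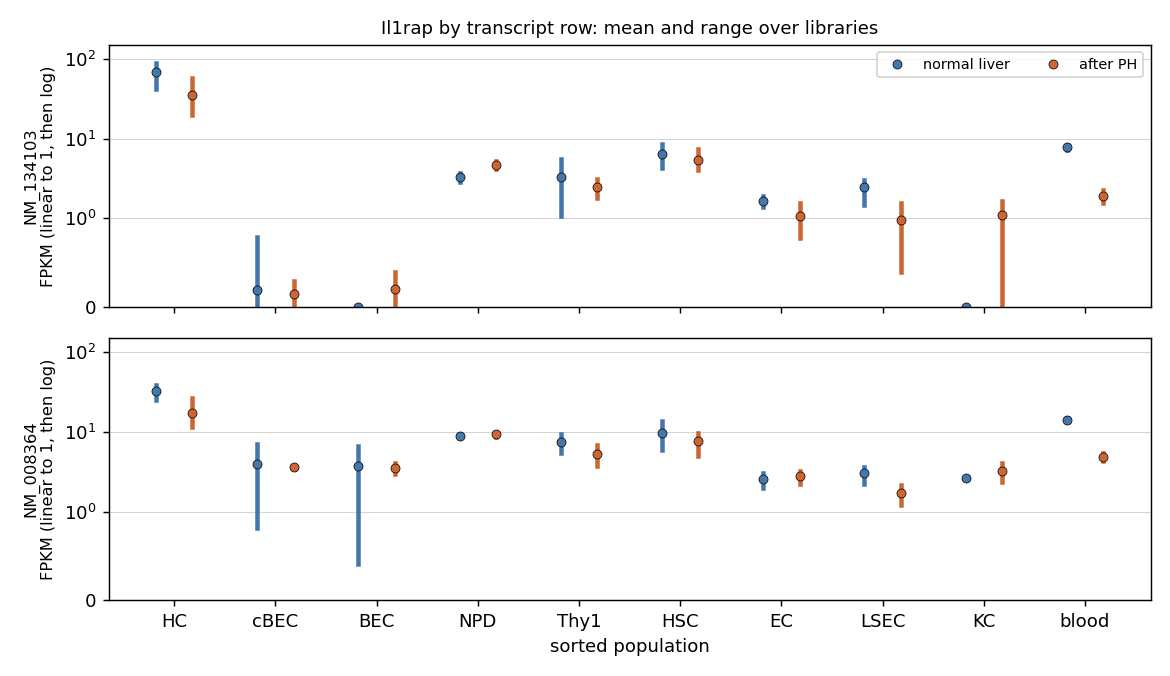
Il1rap on its shorter (top) and longer (bottom) transcript row, as group means with the range over libraries, on an FPKM axis that is linear to 1 and logarithmic above. HC are highest on both rows, and normal KC, BEC and cBEC, near or at 0 on the shorter row, are at 2.64 to 3.90 FPKM on the longer.

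Il18r1, the ligand-binding chain for interleukin-18, was highest in NPD. Normal NPD held 97.6 and 103 FPKM and PH NPD 125 and 174 FPKM, separate groups whose difference of 0.55 (SE 0.22) was not called (adjusted p = 0.152). Thy1 cells (36.1 and 16.3 FPKM) and blood (16.8 and 23.1 FPKM) followed in normal liver and overlapped. KC, HSC, HC, BEC and LSEC were listed at 0 or held less than 1 FPKM in every library. NPD thus carried the highest normal levels of both Il18 and Il18r1.

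Blood fell to 0.513 and 1.53 FPKM of Il18r1 after PH (change -3.40, SE 0.33, adjusted p = 0.00178). The T cell list (6 genes, all called lower) went from 1495 and 1720 FPKM to 34.6 and 65.9 FPKM in the same libraries, and the NK cell list (5 genes, all called lower) from 1426 and 1580 FPKM to 21.6 and 42.7 FPKM; their part was not tested. Il18rap, the second chain of the receptor, fell with it, from 54.0 ± 1.09 to 3.87 ± 0.0955 FPKM (SD, n = 2; change -3.5, adjusted p = 0.000766). In NPD, by contrast, normal libraries held 0.0858 ± 0.0769 FPKM of Il18rap and PH libraries 0.834 ± 0.641 FPKM (SD, n = 2). Thy1 cells held 0.548 ± 0.532 and then 2.12 ± 2.04 FPKM, so both sorts had far less of this chain than of Il18r1.

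EC went from 0.241 and 0.763 FPKM of Il18r1 to 29.7, 4.87 and 13.9 FPKM after PH, with no overlap. The difference of 3.23 (SE 0.64) was not called in EC alone (adjusted p = 0.203), where 3 genes in all were called, and was called in the single fit (adjusted p = 3.94e-06). The mesothelial list, high in the NPD and Thy1 sorts, summed to 10.6 to 148 FPKM in normal EC and 140 to 549 FPKM in PH EC, with no gene called; its part was not tested.

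Il1rl1, which encodes ST2, was near the floor of the table, with at most 4.06 FPKM in any library. Blood held 3.19 and 4.06 FPKM in normal liver and 0.0546 and 0.761 FPKM after PH (change -1.76, SE 0.31, adjusted p = 0.00749). Mast cell and basophil markers, cells known for ST2, went from a sum of 20.9 and 26.4 FPKM to one of 0.0764 and 0.225 FPKM there, with 4 of 4 tested called lower and Fcer1a, Mcpt4 and Mcpt8 listed at 0 after PH. Their part was not tested. Thy1 cells (0.0645 and 0.446 FPKM, then 2.01 and 0.656 FPKM) and NPD (0 and 0.0419 FPKM, then 0.762 and 0.668 FPKM) were higher in every PH library but too low for a test in their own fits. In the single fit of all groups both were called higher, Thy1 cells by 0.85 (adjusted p = 0.000415) and NPD by 0.75 (adjusted p = 0.00151). That fit shares its spread with groups where Il1rl1 was listed at or near 0, so these p-values can be too small. KC held 0.0635 to 0.213 FPKM, and BEC, HC and HSC were listed at 0 in every library. Normal blood, highest for Il1rl1, held little Il33, whereas after PH the highest mean level of Il1rl1 was in Thy1 cells and the next in NPD, both rich in Il33.

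All 8 blood calls rested on 2 libraries a group. Without either normal blood library every one of them was lost, with adjusted p from 0.0515 to 0.199, when limma still called 1262 or 1829 genes in blood in place of 8199. Without either PH blood library only the Il1rn call was lost. The 3 BEC calls were likewise lost without either PH library (highest adjusted p 0.179 for Il1a, 0.151 for Il1b), and with no filter on low values or with quantile normalization. The calls in NPD were also lost with no filter, as was Il33 in blood, and Il1r1 in NPD under both other scalings. In the single fit of all groups, 9 of the 21 calls were lost: Il1a in BEC, LSEC, KC and blood, Il1rn in blood, Il1r1 in NPD, and Il18 in BEC, NPD and KC.

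The response to PH differed between populations for 7 of the 10 genes by an F test of the 9 interaction terms (adjusted p under 0.05, passed by 47.8% of 16527 genes). These were Il1rl1, Il18r1, Il1r1, Il18, Il33, Il1a and Il1rap. It did not pass for Il1b (adjusted p = 0.0994), Il1rn (0.0956) or Il1r2 (0.645), so a difference between populations in the response of Il1b was not shown by that test.

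The signalling pathway was followed in a further 67 listed genes, 500 gene-population pairs of which were tested. After PH, 28 pairs were called higher and 39 lower. The share called was 55.7% in blood (34 of 61, beside 64.0% of all genes), 27.6% in KC (16 of 58, beside 36.8%), 20.8% in NPD (10 of 48, beside 15.2%), 8.0% in LSEC (4 of 50, beside 8.46%), 5.13% in HC (2 of 39, beside 6.19%) and 2.17% in BEC (1 of 46, beside 1.81%). None was called in cBEC, EC, Thy1 cells or HSC. These shares lie near or below those of all genes except in NPD, and set the list little apart. In KC, 12 of the 16 called genes were lower, 20.7% of those tested beside 20.1% of all genes. Fos, an AP-1 subunit, went from 906 ± 159 to 76.7 ± 32.2 FPKM (SD, n = 2 and 3; change -3.61, SE 0.34, adjusted p = 0.00187). Jun, its partner, changed by -3.33 (SE 0.39, adjusted p = 0.00318), and Nfkbiz and Tnfaip3, both NF-kappaB targets that regulate it, by -2.30 (SE 0.33) and -2.0 (SE 0.38). By class, 4 of 13 NF-kappaB genes and 2 of 10 MAP kinase genes were called there, all lower. These are 30.8% and 20%, beside 20.1% of all KC genes called lower and 36.8% called in either direction. Sigirr, an inhibitory receptor of the family, was at 3.91 ± 1.68 FPKM in normal KC and listed at 0 in all 3 PH libraries. Ecsit, a signalling adaptor, and Pycard, the inflammasome adaptor, rose in KC (changes 1.13, SE 0.19, and 1.01, SE 0.25), and Casp1, at 112 ± 6.88 and 111 ± 10.5 FPKM, was not called.

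In NPD, 9 of the 10 called pathway genes were higher, 18.8% of those tested beside 9.65% of all genes. Like the calls of members in NPD, these rested on 2 libraries a group and were lost without either PH library. Nfkbie, an inhibitor of NF-kappaB, went from 3.87 ± 1.32 to 18.9 ± 0.55 FPKM (SD, n = 2; change 2.06, SE 0.25, adjusted p = 0.0138), Il1rl2, the interleukin-36 receptor, from 0.967 ± 0.643 to 7.10 ± 2.37 FPKM, and Myd88 from 35.1 ± 5.82 to 72.0 ± 4.55 FPKM (change 1.02, SE 0.18, adjusted p = 0.0272). Casp1 fell beside Il18, from 19.1 ± 2.16 to 10.1 ± 0.145 FPKM (change -0.86, SE 0.18, adjusted p = 0.038). Il18bp, which binds interleukin-18, rose in HC from 3.46 ± 1.18 to 16.2 ± 3.69 FPKM (SD, n = 4; change 1.96, SE 0.25, adjusted p = 0.00218) and in blood from 39.2 ± 14.7 to 468 ± 146 FPKM (SD, n = 2; change 3.56, SE 0.35, adjusted p = 0.00186). In BEC it fell from 14.5 ± 4.65 to 3.44 ± 0.845 FPKM (change -1.77, SE 0.29, adjusted p = 0.0266), beside the fall of Il18. The Kupffer list moved the same way in blood and BEC, as given above. In HC it summed to 0.09 to 4.63 FPKM in normal and 2.69 to 107 FPKM in PH libraries, which overlap. There 1 of its 6 genes could be tested, and it was not called. The part of this list in the changes of Il18bp was not tested. Also in blood, the kinase Mapkapk2 rose (change 2.45, SE 0.32), and Elane, neutrophil elastase, which can cleave cytokines of the family, fell (change -2.92, SE 0.24). Prtn3, a protease of the same kind, rose in HC from 0.445 ± 0.0835 to 9.52 ± 4.77 FPKM (change 2.74, SE 0.32, adjusted p = 0.00126).

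In LSEC the DNA sensor Aim2 fell (change -1.35, SE 0.29, adjusted p = 0.0191), as did Peli2, a ubiquitin ligase of the pathway (change -1.18, SE 0.27), and Casp4. Capn2, a calpain, the protease class that processes pro-interleukin-1 alpha, rose (change 0.68, SE 0.17, adjusted p = 0.0367).

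The genes whose mean log2 level over the 20 groups was most like a member's were sought among 11707 genes reaching 10 FPKM in some group, as a description over group means that share libraries. Nearest to Il1b were Cd83, Rgs1 and Themis2 (Pearson r 0.98 each), all leukocyte genes with their highest level in normal KC. Il1a had Zfp366 (0.98), the mannose receptor Mrc1 (0.98) and Gatm (0.97), and Il33 had Nxn, the collagen gene Col5a2 (0.94 each) and Prrg3 (0.93). The neutrophil chemokine receptor Cxcr2 (0.95) and the interleukin-36 gene listed as Il1f9 (0.95) were near Il1r2, and Gcdh, Rcl1 and Bola3 (0.91 each) near Il1rap. Il18r1 had B3gnt7 (0.98), Abcb1b (0.97) and Serpinb1a (0.95), and Il1rn had Pak1 (0.95), Wfdc18 (0.94) and Psd4 (0.93). Il1r1, with P3h2 at 0.87, and Il18, with Ptk2b at 0.90, had no gene as close.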

How the data were processed

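RNA sequencing of 55 libraries was deposited by the authors as 1 table of FPKM, so named by the authors, with a column per library and 36141 transcript rows; sums over a library ran from 624726 to 1203200 FPKM over the rows used. The submitters' processing notes name CASAVA 1.8.2, Bowtie 1.0.0 and the build mm9 without their roles; the counting tool is not given in the sources used here. FPKM keep no depth, so no counting intervals are given. Groups follow sample titles.

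The row with the highest mean was kept per symbol. limma 3.58.1 in R 4.3.3 (trend and robust variances, two-sided, Benjamini-Hochberg) was fitted on log2(FPKM + 1), a scale that understates changes of low genes, to each population's own libraries. Genes needed 1 FPKM in at least as many libraries as the smaller group; a single fit of 20 groups gave contrasts between populations. The fits were tested on simulated data. Named genes were the members, the pathway genes with the largest called change in each direction per population with a few more of known role chosen after their values were seen, and the 3 genes most like each member. The members and lists were chosen with earlier results of these data known.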

Additional observations from a re-analysis of the deposited data

Results flagged for a closer look

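In groups of 4 or 5 libraries, 1 library stood far from the others, by Dixon's criterion, for 3 of 29 gene-group combinations examined. The nominal rate of the criterion would give 1.45. A combination was examined where any library reached 1 FPKM, which favours those with 1 high library, so the 2 numbers cannot be compared. Normal HC library 4 held 3.69 FPKM of Il1b, where the other 3 held at most 0.12 FPKM. Normal cBEC library 4 held 1.74 FPKM of the decoy receptor Il1r2, where the others held at most 0.175 FPKM. Normal BEC library 3 held 20.7 FPKM of Il18, where the others held 27.1 to 27.6 FPKM, and it remained above both PH libraries.

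The response to PH differed between populations for 7 genes (limma F test of 9 interaction terms, Benjamini-Hochberg). The test shares its spread over groups, so the p-value of Il1rl1, listed at or near 0 in many of them, can be too small. The adjusted p was 9.0e-10 for Il1rl1 and 3.5e-09 for Il18r1, both of which fell in blood. In the single fit that gives this test, Il1rl1 was also called higher in Thy1 cells and NPD, and Il18r1 higher in EC (adjusted p = 3.94e-06) and lower in cBEC (adjusted p = 0.0363). The adjusted p was 7.6e-08 for Il1r1, called in the populations' own fits higher in LSEC, HC, NPD and blood and lower in KC. The single fit did not call Il1r1 in NPD (adjusted p = 0.0991) and called it higher in Thy1 cells (adjusted p = 0.000783). For Il18 the F test gave 2.6e-05. The single fit called Il18 higher in blood (adjusted p = 0.000335) and lower in HSC (0.00672) and Thy1 cells (0.0324). The own-fit calls of Il18 in KC, BEC and NPD were not called there (0.0949, 0.565 and 0.173). Il33 (0.000702), called higher in LSEC and blood, Il1a (0.000717), and Il1rap (0.0129), called lower in blood, followed. The own-fit calls of Il1a, higher in blood and lower in KC, LSEC and BEC, were not called in the single fit. That fit called Il1a higher in Thy1 cells (adjusted p = 0.0385) and lower in HSC (adjusted p = 0.0132).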

How the results depend on the processing

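None of the 21 called changes reversed its direction under an alternative that was run. Of these, 9 missed the threshold in 1 fit of all groups, 7 with no filter, 4 with quantile normalization, 3 with upper-quartile scaling, 1 with a pseudocount of 0.1 and 0 with the mean over rows; these include tests over more genes, and the cause was not tested. In 1 fit of all groups, members called numbered 1 in cBEC, 1 in BEC, 1 in EC, 4 in Thy1 cells, 2 in KC and 3 in HSC. Those in Thy1 cells were Il1a, Il1r1 and Il1rl1, higher, and Il18, lower. Those in HSC were Il1a, Il1b and Il18, all lower, and Il1b was also called lower in NPD. Normal HSC libraries disagreed, at 0 and 16.6 FPKM of Il18 and 2.23 and 40 FPKM of Il1a. In the own fit of HSC, Il1a (adjusted p = 0.611) and Il1b (adjusted p = 0.507) were not called, and Il18 was not tested. The Kupffer and sinusoidal lists had median changes of -3.18 and -3.36 in HSC, with 0 of 6 genes of each called. Their part was not tested. With no filter they numbered 0 in BEC and 0 in NPD, and with quantile normalization 0 in BEC and 1 in NPD. Quantile normalization moved the median change of all genes in blood (-0.31 became -0.15), cBEC (-0.11 became 0.05), BEC (-0.12 became 0.02) and KC (-0.04 became 0.08). Leaving out 1 library gave 0 to 3 called members in BEC, 0 to 4 in NPD, 2 to 4 in LSEC, 0 to 7 in blood, 2 to 6 in KC, 1 in HC and 0 in cBEC, EC, Thy1 cells and HSC, and 39 to 81 called pathway pairs in place of 67. Of the 23 same-numbered pairs of normal and PH libraries, 4 had deviations correlated above 0.1 (range -0.65 to 0.5). Differently numbered pairs were not compared, so whether the numbers pair libraries was not settled. With the replicate block, 0 members were called in LSEC and 3 in Thy1 cells. FPKM carry no depth, so how far counting error limits low genes such as Il1rl1 is unknown.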
